A study of Mus musculus with 6 samples.

Results

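The phagocyte NADPH oxidase was examined through 6 genes of 52550 in the expression tables, taken as the rows whose symbol was Cybb, Cyba, Ncf1, Ncf4, Rac1 or Rac2. The enzyme moves electrons from NADPH in the cytosol across a membrane to oxygen, and the superoxide so made serves phagocytes to kill microbes. Its core is a membrane cytochrome of 2 chains, the products of Cybb (NOX2, which carries the electrons) and Cyba (p22phox, which stabilises NOX2). In a resting cell the cytosolic subunits lie apart from it. On activation the organiser encoded by Ncf1 (p47phox) is phosphorylated and docks on p22phox, the product of Ncf4 (p40phox) binds a phosphoinositide of the phagosome, and a Rac GTPase in its GTP form completes the complex. Rac2 is the Rac of blood cells, whereas Rac1 is made in nearly all cells and also drives actin assembly. In the marrow Cybb, Ncf1 and Ncf4 are switched on as progenitors commit to granulocytes and monocytes.

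Messenger RNA was sequenced from cells labelled hematopoietic stem cells of mouse bone marrow. The 3 knockout (KO) libraries carry the genotype VAV1crePpp2caf/f, that is, floxed alleles of Ppp2ca, the main catalytic subunit gene of protein phosphatase 2A, with a Cre driven by Vav1 sequence, which is active in blood cells. The 3 wild-type (WT) libraries carry Ppp2caf/f, the same floxed alleles, with no Cre named. The labels give no age, no surface markers for the isolation and do not say which libraries are of different animals. The p-values therefore rest on how far these 6 libraries scatter, which may be technical. The comparison asks which genes differ in KO from WT.

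Libraries held 37951985 to 58692037 reads over genes, and the 6 genes had between 3996 and 42597 reads each in any library, far above a floor of 3 reads. Ppp2ca stood at 70.5% of its WT level in KO (limma log2 fold change −0.50, adjusted p = 0.00268), a whole-gene value that does not measure the deletion itself. None of the 14 stem cell markers was at 0 in all libraries, and their summed level was 37120 to 53710 normalised reads in KO and 103124 to 115509 in WT. The granulocyte-monocyte progenitor markers summed to 1935707 to 2150939 in KO and 1304703 to 1540949 in WT, more than the stem cell markers in all 6 libraries. Mpo alone averaged 1237142 in KO and 954999 in WT. Sums over different genes therefore do not weigh these cell types against each other. In bulk RNA, fewer cells of a type and less RNA per cell cannot be told apart.

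Of the 6 oxidase genes, 4 rose in KO and 0 fell (limma, Benjamini-Hochberg adjusted p below 0.05 over all 20136 genes tested), against 10.3% of all tested genes that were higher in KO and 13% that were lower. Cybb, Ncf1 and Ncf4 rose by 1.64-fold to 2.43-fold, and their calls held in all 18 alternative fits. Rac2 rose by 1.21-fold and lost its call in 9 of those 18. Cyba and Rac1 did not pass. On the recovered reads edgeR and DESeq2 also called 4 of the 6 higher, beside 12.4% and 12.5% of the genes each tested. Limma called 3 higher without WT replicate 1 (7.06% of all genes) and 3 with the replicate number as a block (8.47%). The median log2 fold change of the 6 was 0.72, beside −0.02 for all tested genes. It lies between the values of Ncf4 (0.71) and Rac1 (0.73), and that of Rac1 rests on WT replicate 1. Without that library the log2 fold changes were 1.37 for Cybb, 1.01 for Ncf1, 0.64 for Ncf4, 0.22 for Cyba and for Rac2, and 0.088 for Rac1. Values are normalised reads, that is, reads per gene divided by a size factor per library, and every fold change was fitted to log2(value + 1).

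**Figure D1:**
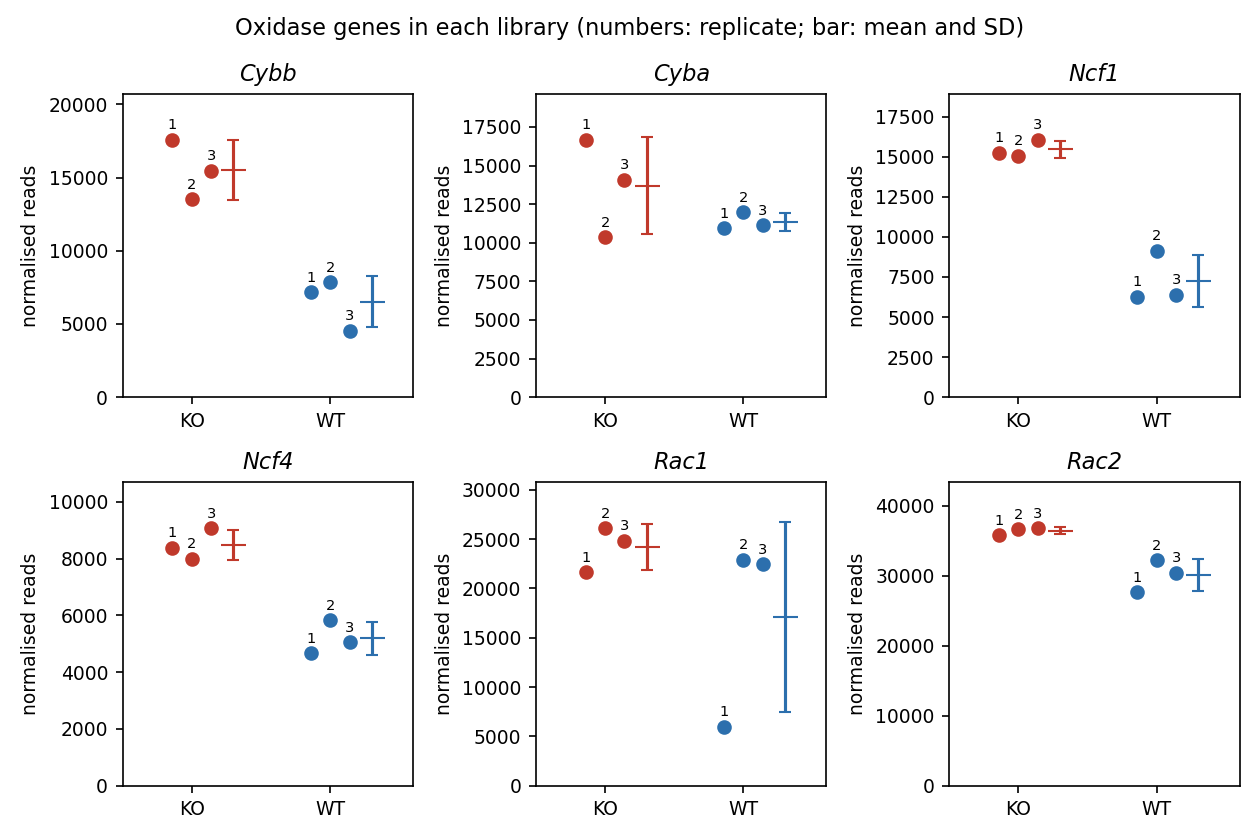
Normalised reads (y axis, from 0) of each oxidase gene in the 3 KO and the 3 WT libraries, with replicate numbers at the points and the mean and SD as bars. Cybb, Ncf1, Ncf4 and Rac2 lie higher in every KO library than in any WT library, Cyba overlaps, and Rac1 in WT replicate 1 stands at 5981, far under its other 5 values.

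The cytochrome chains differed from each other. Cybb, the gene of the electron-carrying chain, had 17579, 13519 and 15474 normalised reads in KO replicates 1 to 3, against 7174, 7863 and 4547 in WT replicates 1 to 3. Every KO value was above every WT value, as in 19.1% of all tested genes. The means were 15524 ± 2030.4 in KO and 6528 ± 1749.6 in WT (SD, n = 3 each). The log2 fold change was 1.28 ± 0.20 (SE), with a 95% interval of 0.81 to 1.75 and a limma adjusted p of 0.00468. Cyba, the gene of the stabilising chain, had 16663, 10376 and 14076 in KO, against 10922, 11984 and 11130 in WT. KO replicate 2 lay under all 3 WT libraries while KO replicates 1 and 3 lay above them. Cyba averaged 13705 ± 3160.0 in KO and 11346 ± 563 in WT, a log2 difference of 0.25 with an interval of −0.13 to 0.62 (limma adjusted p = 0.324). Without KO replicate 2 the difference was 0.43 and passed (adjusted p = 0.0279).

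Reads of Cybb per read of Cyba numbered 1.05, 1.30 and 1.10 in KO and 0.657, 0.656 and 0.409 in WT. A ratio within a library does not depend on how that library was scaled. The KO ratios were all higher, with a log2 difference of 1.03, and the exact two-sided permutation test gave p = 0.1, the smallest p that 3 against 3 libraries allow. Adjusted over the 3 ratios computed, p was 0.15. The log2 difference stayed between 0.81 and 1.15 when single libraries were left out.

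Markers of neutrophils and of monocytes were summed beside the cytochrome genes. The summed level of the neutrophil markers was 281527, 130463 and 196712 in KO replicates 1 to 3, against 136035, 154290 and 93857 in WT, the same order as Cybb and Cyba within KO and as Cybb within WT. Between groups the sums overlapped, KO replicate 2 lying below WT replicates 1 and 2, whereas Cybb did not overlap. Single markers of that list differed, S100a8, S100a9 and Lcn2 being higher in every KO library, as Cybb was, while Ngp, Camp and Ltf overlapped. Of the 14 neutrophil markers, 4 rose and 2 fell, beside 10.3% and 13% of all tested genes. Markers of monocytes and macrophages summed to 110805, 135232 and 121071 in KO, against 133760, 171034 and 132336 in WT, in the opposite order to Cybb within KO and in the same order within WT. None of the defining markers in either list was at 0 in all libraries, and their part in the cytochrome values was not tested.

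RefSeq's promoter table (GRCm38.p6) held 3 of the 6 genes, namely Cybb, Ncf1 and Cyba, and all 3 are shown. Each line gives the 250 bases before the gene start annotated there, 5′ to 3′ on the gene's strand. For Cybb that start, base 9469324, lies inside the gene as counted (chrX:9435252-9487771, minus strand), so its window does too. Capitals mark matches, on either strand, to 3 motifs searched by letters: GAGGAA, the core bound by the myeloid factor PU.1, a pair of GAAA half-sites with 2 bases between them, an interferon-type element bound by IRF factors, and the CCAAT box.
Cybb, chrX:9469325-9469574, minus strand: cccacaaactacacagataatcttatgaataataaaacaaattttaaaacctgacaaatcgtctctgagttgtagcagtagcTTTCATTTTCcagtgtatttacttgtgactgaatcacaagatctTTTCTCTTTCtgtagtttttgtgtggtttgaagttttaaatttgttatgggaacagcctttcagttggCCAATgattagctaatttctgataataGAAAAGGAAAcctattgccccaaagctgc
Ncf1, chr5:134229626-134229875, minus strand: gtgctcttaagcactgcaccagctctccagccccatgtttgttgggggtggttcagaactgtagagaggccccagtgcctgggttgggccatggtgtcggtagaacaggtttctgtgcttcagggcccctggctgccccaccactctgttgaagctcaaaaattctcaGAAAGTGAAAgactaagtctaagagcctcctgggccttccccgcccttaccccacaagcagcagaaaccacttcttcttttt
Cyba, chr8:122432941-122433190, minus strand: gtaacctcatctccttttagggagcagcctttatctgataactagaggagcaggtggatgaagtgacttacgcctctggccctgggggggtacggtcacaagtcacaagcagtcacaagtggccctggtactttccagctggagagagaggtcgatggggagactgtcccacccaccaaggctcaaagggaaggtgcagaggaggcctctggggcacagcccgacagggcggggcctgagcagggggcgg

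The Cybb promoter held the paired GAAA element at 3 places, from base −168, −124 and −29 relative to the gene start, and a CCAAT box from base −56. Its match to GAGGAA lay on the opposite strand just after the start, from base 10, and is shown with its flanks.
Cybb, chrX:9469300-9469323, minus strand: gttttcatTTCCTCatcagaagaa
Ncf1 held the element once, from base −82, and in Cyba none of the 3 motifs was found in the window of 300 bases. Over all 32851 windows of that length, from 250 bases before to 50 after a start, 28.3% held GAGGAA, 3.44% held the paired GAAA element and 37.4% held CCAAT. At least 3 matches to that element occurred in 5 windows, or 0.0152%, a count made after the Cybb match was seen. No motif overlapped another in these windows. A match is a description of letters and was not tested as a site of binding.

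Both cytosolic subunit genes rose. Ncf1, the organiser that is phosphorylated on activation, had 15239, 15074 and 16056 normalised reads in KO, against 6267, 9140 and 6394 in WT. The groups lay far apart, and the KO libraries were closer to each other than the WT libraries. The log2 fold change of Ncf1 was 1.11 ± 0.15 (SE), with an interval of 0.77 to 1.45 (limma adjusted p = 0.00237). Ncf4, the phosphoinositide-binding subunit, had 8379, 7994 and 9064 in KO, against 4674, 5823 and 5058 in WT. Here too every KO value was above every WT value, with a log2 fold change of 0.71 ± 0.10 (SE), an interval of 0.47 to 0.96 and a limma adjusted p of 0.00352. In WT, replicate 2 was the highest for both genes. The 3′ end of Ncf1 (chr5:134220053-134229625, minus strand) overlaps Gtf2ird2 on the plus strand, and 7.45% of its 50-base transcript stretches occur in other annotated transcripts. Gtf2ird2 had 577 to 829 normalised reads in KO and 680 to 930.1 in WT, little beside Ncf1.

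The cytosolic pair was also compared within each library. Reads of Ncf4 per read of Ncf1 numbered 0.550, 0.530 and 0.565 in KO and 0.746, 0.637 and 0.791 in WT, lower in every KO library. The log2 difference was −0.40, with an exact two-sided permutation p of 0.1, the smallest possible, and 0.15 adjusted over the 3 ratios. It ranged from −0.49 to −0.33 when single libraries were left out.

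**Figure D2:**
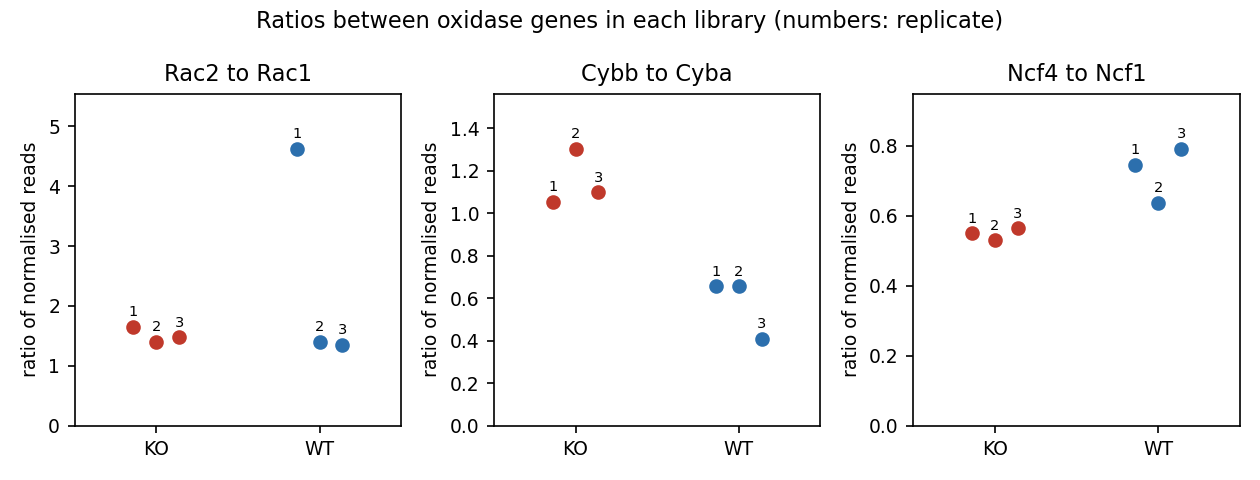
Ratios of normalised reads (y axis, from 0) between pairs of oxidase genes in each of the 3 KO and 3 WT libraries, with replicate numbers at the points. Cybb to Cyba is higher and Ncf4 to Ncf1 lower in every KO library, whereas Rac2 to Rac1 differs from the rest only in WT replicate 1, at 4.62.

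Of the Rac GTPases, Rac2 passed the test by a small margin and Rac1 did not. Rac2, the Rac of blood cells, had 35801, 36589 and 36754 normalised reads in KO, against 27650.0, 32174 and 30416 in WT. KO values lay above WT values by a narrow margin, with a log2 fold change of 0.28 ± 0.08 (SE), an interval of 0.09 to 0.46 and a limma adjusted p of 0.0415. Rac2 lost its call when any library but WT replicate 2 was left out, with adjusted p of 0.0770 without KO replicate 1, 0.0810 without KO replicate 2, 0.143 without KO replicate 3, 0.0861 without WT replicate 1 and 0.0840 without WT replicate 3. With the replicate number as a block its adjusted p was 0.0596, and under quantile normalization its sign turned (−0.055).

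Rac1, the Rac of nearly all cells, had 21649, 26104 and 24852 normalised reads in KO, against 5981, 22903 and 22493 in WT. WT replicate 1 stood apart far under every other library, and the remaining WT libraries lay within the KO range. The log2 difference of 0.73 therefore rests on that library, with an interval of −0.36 to 1.82 (limma adjusted p = 0.315), and it was 0.088 without WT replicate 1 (adjusted p = 0.598). Of 7510 genes with a mean of at least 1000 normalised reads, 9 were at least 2-fold lower in WT replicate 1 than in each other library, and 3 to 29 were so in each of the other 5. Rac1 (chr5:143503634-143528036, minus strand) overlaps the 3′ end of Daglb, a lipase gene on the plus strand, and 50.3% of the 50-base stretches of Rac1 transcripts also occur in Daglb transcripts. No source used here says whether reads were counted by strand, so reads of the overlap cannot be assigned with certainty. Daglb had 9102, 10958 and 9967 in KO, against 6791, 8500 and 7955 in WT, and like Rac1 was lowest in WT replicate 1. Whether the overlap bears on the Rac1 value there was not tested. Rac1 and Rac2 shared no stretch of 50 bases.

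Reads of Rac2 per read of Rac1 numbered 1.65, 1.40 and 1.48 in KO and 4.62, 1.40 and 1.35 in WT. The exact permutation test of the log2 ratio gave p = 0.9, and 0.9 adjusted over the 3 ratios. The log2 difference was −0.45, or 0.13 without WT replicate 1.

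**Figure D3:**
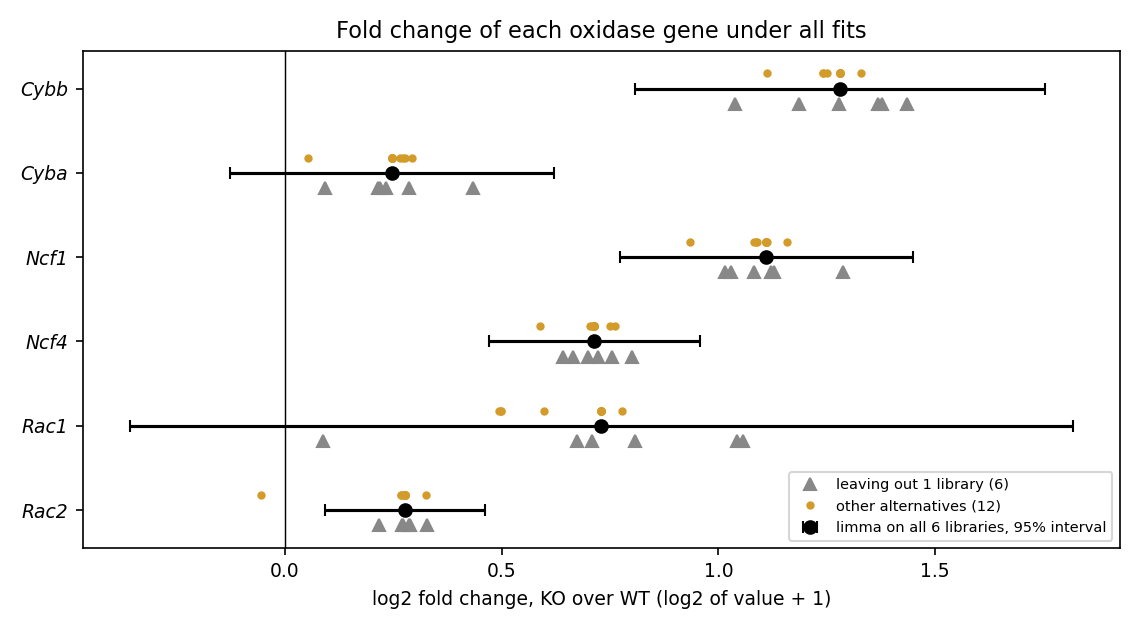
Log2 fold change of each oxidase gene, KO over WT (x axis), from the limma fit of all 6 libraries with its 95% interval (black), from the 12 other fits of all libraries (orange) and from the 6 fits that leave out a library (grey triangles). All fits of Cybb, Ncf1 and Ncf4 lie above 0.5, Rac1 drops to 0.088 without WT replicate 1, and Rac2 turns to −0.055 under quantile normalization.

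Levels of different genes were compared per kilobase of merged annotated exon. In KO, Cyba averaged 13191 ± 3041 normalised reads per kilobase and Rac2 11725 ± 164, followed by Rac1 with 5383 ± 511, Ncf1 with 4219.5 ± 144, Ncf4 with 4197 ± 268 and Cybb with 2673 ± 349.6. In WT the levels were 10919.7 ± 542 for Cyba, 9694 ± 735 for Rac2, 3809 ± 2147 for Rac1, 2567 ± 289.5 for Ncf4, 1984 ± 443 for Ncf1 and 1124 ± 301 for Cybb. In KO the ranges of Cyba and Rac2 overlapped, and so did those of Ncf1 and Ncf4. In WT the ranges of Ncf4 and Ncf1 overlapped, and that of Rac1 spanned both because of replicate 1. Cybb was the lowest per kilobase in all 6 libraries, in WT replicate 1 with 1235 beside 1330.2 for Rac1.

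The genes whose log2 values ran most like each oxidase gene over the 6 libraries were found among 8623 other genes with a mean of at least 500 normalised reads. For Cybb they were Gnai3 and Ankmy1, with Pearson r of 0.999 each. For Cyba they were Fech and Gcc2 (0.994 and 0.993), for Ncf1 Rhbdf2 and Elac2 (0.998 and 0.997), and for Ncf4 Tspoap1 and Ikbke (0.999 and 0.998). Cops7b and Tuba4a were nearest to Rac2 (0.999 and 0.998), and Sh3bp5l and Fadd to Rac1 (0.990 and 0.989). The 6 libraries fall into 2 groups and share their scaling, so these values describe likeness only.

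Genes around the oxidase were taken from 10 lists with 112 genes, of which 106 were tested. Of these, S100a8, S100a9, Mpo, Epx, Cebpe, Fcgr3, Itgam, Irf8 and Hoxa9 also stand in cell type lists. Counts of the pathway lists and of the cell type lists therefore share genes. In KO, 35 of the 106 were higher and 15 lower, beside 10.3% and 13% of all tested genes, with a median log2 fold change of 0.16. Without the intensity trend these counts were 8 and 8, when 1071 and 1750 of all 20136 genes were called higher and lower, and without KO replicate 3 they were 13 and 9. Under quantile normalization 23 were higher and 21 lower. Of the related genes described below, Noxa1, Hvcn1, Dock5, Pak2, Prkca, Prkcb, Pik3r5, Fcgr2b, Satb1, Cux1, Irf8, Pgd and G6pdx kept their calls in all 18 alternatives, and every other of these that passed, leaving aside those named after their values were seen, lost its call in at least 1. Without WT replicates 1, 2 and 3 the counts of higher genes were 22, 23 and 23, and without WT replicate 2 the lower genes were 9.

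Among 14 genes of oxidase assembly, charge balance and regulation, 7 rose and 0 fell, with a median of 0.44. Those that rose include S100a8 (0.93) and S100a9 (1.14), the latter named after its values were seen. Both are also counted among the mature neutrophil markers. Hvcn1, the proton channel that balances the charge the oxidase moves, had 12517, 9008 and 11465 normalised reads in KO, against 5340, 6758 and 4889 in WT. All KO values were higher, in the same order as Cybb within KO (log2 fold change 0.96, limma adjusted p = 0.00546). Arhgdib (0.50) and Arhgdia (0.52), which hold Rac proteins in the cytosol in their GDP form, rose, as did Rap1a (0.38), a GTPase found with the cytochrome. Arhgdib and Arhgdia lost their calls without the intensity trend and under quantile normalization (0.33 and 0.23). Arhgdia also lost its call without KO replicate 3 and Rap1a without KO replicate 3, WT replicate 2 or WT replicate 3. Cybc1, which the tables list under an older symbol and which is needed to make the cytochrome proteins, averaged 4841 ± 483 in KO and 6012 ± 509 in WT and did not pass (−0.31, adjusted p = 0.0739).

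The relatives of NOX2 were low. Of 9 genes of other NOX and DUOX enzymes and their partners, 4 were at 0 in all libraries, namely Nox3, Duox1, Duox2 and Duoxa1, and 3 were tested. Noxa1, an activator of NOX1, had 0 reads in every KO library, against 23.4, 16.2 and 61.5 normalised reads in WT. Its WT mean of 33.7 makes it at least 11.5-fold lower in KO against a floor of 3 reads per library, or at least 6.78-fold without WT replicate 3, and it was the single member of the list that passed (adjusted p = 0.00304). Nox1 averaged 572 ± 63.9 in KO and 489 ± 101 in WT, and Noxo1, its organiser, 46.1 ± 15.8 in KO and 38.5 ± 7.01 in WT. Neither passed (adjusted p = 0.441 and 0.783).

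Of 12 genes of the Rac family and its activators, 4 rose and 0 fell, with a median of 0.14. Dock5, an exchange factor that loads Rac with GTP, rose to 222% of its WT level (1.16, adjusted p = 0.00261). Rhog, a Rac-related GTPase, rose by 0.55 on the log2 scale, and the exchange factors Vav1 and Swap70 by 0.31 and 0.30. Rhog lost its call without KO replicate 3, and Vav1 and Swap70 without any of several libraries, KO replicate 3 and WT replicates 1 and 2 among them. Vav1 also gives its name to the Cre driver of the KO mice, and whether the driver adds reads to it was not tested. Of 8 GTPase-activating proteins and related genes that switch Rac off, 2 rose and 2 fell, with a median of −0.00. Arhgap15 (−0.43) and Arhgap25 (−0.41) fell, while Abr (0.35) and Srgap2 (0.55) rose. Leaving out KO replicate 3 or WT replicate 2 ended the calls of Arhgap25, Abr and Srgap2.

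Of 13 actin effectors of Rac, 3 rose and 0 fell, with a median of 0.06. The kinase Pak2 rose by 0.61 (adjusted p = 0.00744), and Actr3 and Actr2 of the actin-nucleating ARP complex rose by 0.44 and 0.54, the call of Actr2 being lost without KO replicate 1, KO replicate 3, WT replicate 2 or WT replicate 3. Nckap1l, the blood-cell member of the WAVE complex, had a difference of −0.26 that did not pass (adjusted p = 0.0673). Under quantile normalization Actr2 and Actr3 lost their calls and Nckap1l passed.

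Kinases that act on the oxidase or its lipids went both ways, with 6 of 16 higher and 2 lower and a median of 0.18. Prkcb, a protein kinase C that phosphorylates p47phox, rose to 151% of its WT level (0.59, adjusted p = 0.00606), whereas Prkca, another protein kinase C, fell to 35.2% (−1.50, adjusted p = 0.00243). Pik3r5, the adaptor of the G-protein-coupled PI3-kinase, rose by 1.11 on the log2 scale, while Pik3cg, the catalytic subunit it binds, fell (−0.53, adjusted p = 0.0340), a gene named after its value was seen. Pik3cd, the catalytic subunit of another PI3-kinase, rose by 0.65, a call lost without the intensity trend.

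Among 14 receptors and adaptors that trigger the oxidative burst, 5 rose and 1 fell, with a median of 0.42. The IgG receptors Fcgr2b, which is inhibitory, and Fcgr3, which is activating, rose by 0.64 and 0.37 (adjusted p = 0.00492 and 0.0147), and Fcgr3 lost its call without the intensity trend and under quantile normalization (0.19). The tumour necrosis factor receptor Tnfrsf1a rose by 0.47 and the platelet-activating factor receptor Ptafr fell by 0.74 on the log2 scale. The last pair lost their calls without KO replicate 3, WT replicate 1 or WT replicate 2, among other libraries.

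Transcription factors known for Cybb mostly fell. Of 10, 6 fell and 2 rose, with a median of −0.76. The list was not split into activators and repressors, so its counts and median have no common meaning for Cybb. Spi1, which encodes PU.1, had 17933, 15869 and 17862 normalised reads in KO, against 10441, 12512 and 12281 in WT, and rose (0.55, adjusted p = 0.00699). Irf8, which acts with PU.1 on myeloid genes, had 5874, 8172 and 7162 in KO, against 12332, 18545 and 13372 in WT, lower in every KO library (−1.05, adjusted p = 0.00571). Cux1 (−0.73), known as a repressor of Cybb, and Satb1 (−1.45) fell too. The factor that rose beside Spi1, named after its value was seen, was Cebpe (0.81), a regulator of granulocyte maturation.

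Of 6 enzymes that supply NADPH, 3 rose and 0 fell, with a median of 0.49. The pentose phosphate pathway dehydrogenases G6pdx and Pgd rose to 171% and 198% of their WT levels (adjusted p = 0.00228 and 0.00145), and H6pd, their counterpart in the endoplasmic reticulum, by 0.73 on the log2 scale, a call lost without KO replicate 3. Me1 averaged 8.50 ± 11.5 in KO and 32.4 ± 20.8 in WT and did not pass (adjusted p = 0.153). Of 10 enzymes that use or remove oxidase products, 3 rose and 3 fell, with a median of 0.23. Sod2, the mitochondrial superoxide dismutase (0.38), and the thioredoxin reductase Txnrd1 (0.37) rose, catalase, encoded by Cat, fell (−0.41), and the eosinophil peroxidase Epx fell (−2.56). These 4 lost their calls without KO replicate 3.

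**Figure D4:**
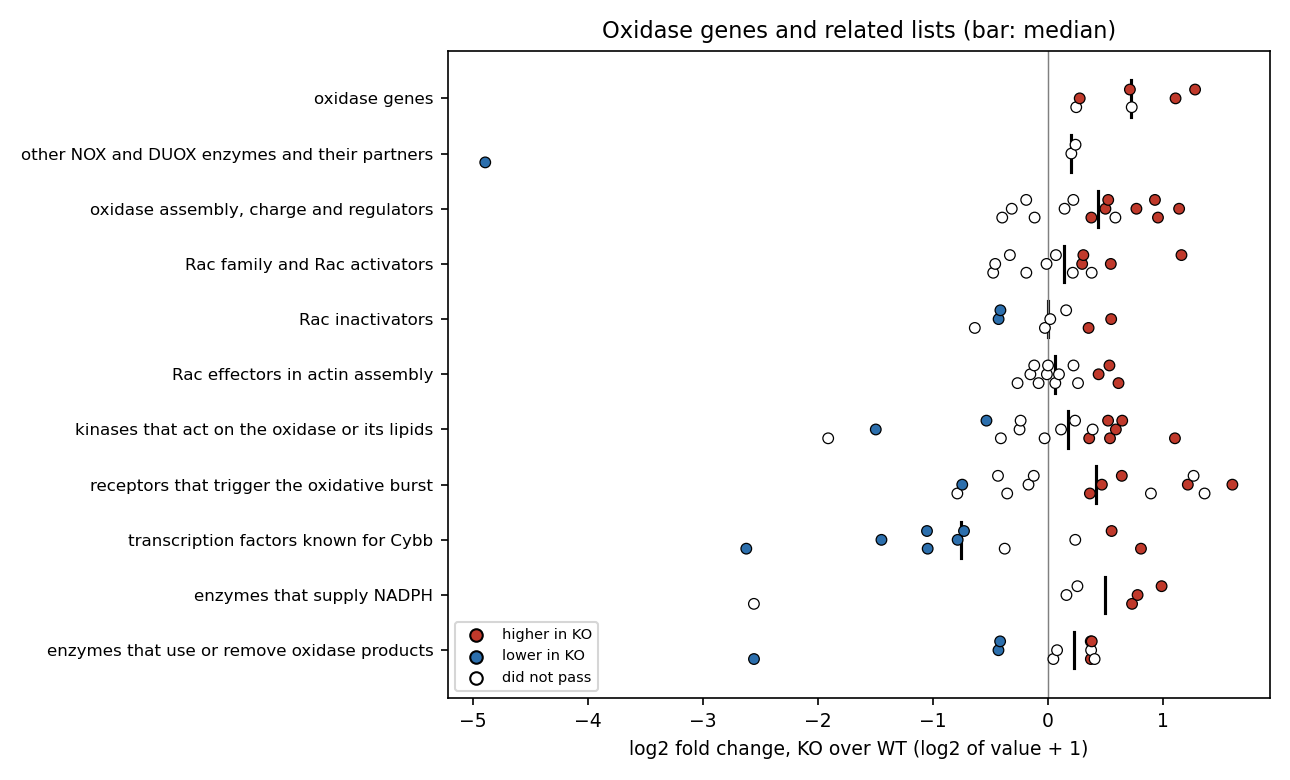
Log2 fold change, KO over WT (x axis), of every tested gene of the oxidase and the related lists (rows), filled where the limma call was higher or lower in KO, with the list median as a bar. The oxidase genes have a median of 0.72, which lies between Ncf4 and Rac1, whose value rests on WT replicate 1. The transcription factors known for Cybb, not split into activators and repressors, have one of −0.76. The far left point is the fitted value of Noxa1, which was at 0 in KO.

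The counts of cell type markers stand beside 10.3% of all tested genes higher in KO and 13% lower. Of 12 granulocyte-monocyte progenitor markers 10 rose and 0 fell (median 0.63), with Mpo and Elane, which had the highest means over all 6 libraries, at 0.37 and 0.40. In KO alone Ctsg (1.39), named after its values were seen, averaged more than Elane. Quantile normalization gives such top-ranked genes a common value by construction and says nothing of them. Both lost their calls without KO replicate 1, KO replicate 3, WT replicate 1 or WT replicate 3. Of 14 mature neutrophil markers 4 rose and 2 fell (median 0.63). S100a8 had a log2 fold change of 0.93, lost without any library but KO replicate 2, and Ngp one of 0.07 that did not pass. Of 15 monocyte and macrophage markers 5 fell and 0 rose (median −0.71), with Lyz2 at −1.32 and Ly6c2 at 0.21, which did not pass. Of 11 dendritic cell markers 8 fell (median −1.59), among them Irf8 and Flt3 (−1.59). Stem cell markers fell in 13 of 14 cases (median −1.71), with Cd34 at −1.32 and Kit at −0.65. Of the cell types with little or no phagocyte oxidase, 10 of 11 erythroid markers fell and 1 rose (median −1.98), with Car2 at −2.32 and Tfrc, which rose, at 1.44, a call lost without KO replicate 3 or any WT library, and 8 of 9 megakaryocyte markers fell (median −2.27), with Itga2b at −1.52. Of 8 tested T and NK markers 6 fell (median −2.56), with Il7r at −3.03 and Klrb1c at −1.67, a call lost without KO replicate 1, KO replicate 3, WT replicate 1 or WT replicate 3, and Cd8a was at 0 in all libraries. Of 8 tested B cell markers 3 fell (median −1.96), with Igkc at −5.11 and Ighm at −2.62, and Ebf1 and Pax5 were at 0 in all libraries. Of 9 tested eosinophil, basophil and mast cell markers 8 fell (median −2.23), with Prg2 at −2.53. Eosinophils and B cells also carry the phagocyte oxidase. The part of these shifts in the oxidase values was not tested.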

How the data were processed

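Per the labels' protocols, a VAHTS mRNA-seq v2 kit was used on poly(A) RNA of the marrow cells. The submitters' processing notes list HISAT2 and StringTie and, as builds, mm10 and mm8, and give no version or role for any. The deposited signal per gene was, in 100% of values, a whole multiple of a step per library (0.863 to 1.17) within 0.01 of a read, so it is a read count divided by a size factor by the authors. Coordinates equalled those of GENCODE M21 (GRCm38) for all 49035 gene IDs found there in the same version.

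Limma 3.58.1 in R 4.3.3 was fitted with an intensity trend to log2(value + 1) of the 20136 genes that reached 1 in 3 or more of the 6 libraries. P-values are two-sided and adjusted by Benjamini-Hochberg over all genes, with 0.05 as threshold. Ratios between genes were tested by exact permutation (scipy 1.17.1). The fit was tested on simulated data.

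The 18 alternatives were limma without trend, robust eBayes, library quality weights, TMM, upper quartile or quantile scaling, a pseudocount of 0.1, no filter, a minimum of 5, edgeR 4.0.16, DESeq2 1.42.0, the replicate number as a block, and leaving out each library. EdgeR and DESeq2 used the recovered reads, on which edgeR called 4571 genes.

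Members and lists were chosen with earlier results of these data known. Named were the 6 oxidase genes, up to 4 genes with the smallest p of each of 10 pathway lists, Spi1, Irf8 and Cybc1, and the 2 most abundant of each of 10 cell type lists. Some genes that this rule names are not reported here. A symbol on 2 rows, Itgam, was taken at its higher row. Merged exons are those of GENCODE M21, which holds Ncf4 and Rac2 in another version than the files.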

Additional observations from a re-analysis of the deposited data

How the results depend on the processing

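Cybb, Ncf1 and Ncf4 kept their direction and call in all 18 alternatives, with log2 fold changes of 1.04 to 1.43, 0.93 to 1.29 and 0.59 to 0.80. Rac2 kept its sign but not its call without the intensity trend, without a filter and with the replicate block (0.28 in each, adjusted p = 0.166, 0.0580 and 0.0596). It turned to −0.055 under quantile normalization, which moved the median of all genes by 0.10. Leaving out single libraries gave Rac2 0.22 to 0.33, Cyba 0.092 to 0.43 and Rac1 0.088 to 1.06. The Rac2 to Rac1 log2 ratio ranged from −0.76 to 0.13. The cause was not tested. Deviations of same-numbered KO and WT libraries from their group means showed no correlation over all tested genes (−0.02, −0.01 and −0.02). Genes with few reads weigh as much there as others, so these values cannot settle whether the numbers pair libraries. With the block, 1705 genes were higher and 2157 lower, beside 2069 and 2622 without it.

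Over all genes, 1071 were higher without the trend and 3198 with library quality weights. Leaving out libraries gave 978 to 1808 higher and 1617 to 2548 lower. Of the 106 related genes, 8 were higher and 8 lower without the trend, 23 higher and 21 lower under quantile normalization, and 44 higher and 25 lower with quality weights. Leaving out libraries gave 13 to 31 higher and 9 to 17 lower. Of 60 other named genes, 28 lost their call in at least 1 alternative, and 1 changed sign: Ngp, at −0.19 under quantile normalization and −0.28 to 0.49 otherwise, including −0.01 and −0.22. Depth was not limiting for the 6 oxidase genes. It limits Noxa1 and Me1, which had few reads.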
